A study of Homo sapiens with 6 samples.

Results

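The genes that build, modify and break down sphingolipids were compared between large physaliferous and small non-vacuolated cells of MUG-Chor1, a line grown from a chordoma of the sacrum and coccyx. The set was a list of 37 genes taken by name, of which 34 were measured, out of 18404 genes measured in all. A gene counted as measured when a probe set of the array carried its symbol and no other. Where a gene had several such probe sets, as *ST8SIA1* did, the brightest over all 6 arrays was kept. *CERS1* shares its probe set with *GDF1*, and *SPTLC3*, *SPHK2* and *CERS1* were not analysed here. The arrays came from 3 pools of 20 large physaliferous cells (large pools 2, 3 and 4) and 3 pools of 20 small non-vacuolated cells (small pools 5, 6 and 7). The methods describe pools picked in quadruplicate for each phenotype, and arrays of 3 pools of each were available here. All pools were picked by micromanipulation from trypsinized, serum-fed cultures of the same line, which stands for 1 tumor, and the RNA of each pool was amplified and hybridized to 1 Affymetrix Human Gene 1.0 ST array. Both groups were untreated. Neither the labels nor the methods tell if the pools of a group were taken from different cultures, and the p-values then cover only the spread from pool to pool, which may be technical.

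Sphingolipids share a backbone, ceramide, that is made on the endoplasmic reticulum. Serine palmitoyltransferase joins serine to a fatty acid, a reductase and a ceramide synthase turn the product into dihydroceramide, and a desaturase completes ceramide. Ceramide is then either given phosphocholine to form sphingomyelin or a sugar to form glycosphingolipids, the lipids that carry sugar chains at the cell surface and on endosomes and lysosomes. Breakdown returns sphingosine, which is reused or phosphorylated to the signaling lipid sphingosine 1-phosphate. The physaliferous cell, named for its vacuoles, is the characteristic cell of chordoma.

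The enzymes of the first 2 steps of the glucosylceramide branch, *UGCG*, *B4GALT5* and *B4GALT6*, had all large pools above all small pools. The 4 listed later enzymes of the branch and most ceramide synthesis and turnover genes lay close to 0, as did most genes measured. A log2 fold change within 0.3 of 0 was found for these 4 enzymes, 9 of 15 ceramide genes and 7 of 10 turnover genes. The same held for 13273 of the 18404 genes. On its other probe set *ST8SIA1*, 1 of the 4, had -0.61. No member passed the test. Levels are given as log2 expression after robust multi-array averaging (RMA), and differences as log2 fold changes, large minus small. By limma with Benjamini-Hochberg adjustment 0 of the 34 members and 0 of the 18404 genes (0%) had an adjusted p under 0.05, and the adjusted p of the members ran from 0.32 to 0.98. At an unadjusted p under 0.05, 3 members were higher in large cells, against 4.33% of all genes, and 2 were lower, against 10.5% of all genes. Every large pool lay above every small pool for 4 of the 34 members (11.8%), against 5.48% of all genes, and below every small pool for 6 (17.6%), against 21.6% of all genes. A log2 fold change of at least 0.5 was found for 7 of the 34 members (20.6%), against 7.34% of all genes, and one of -0.5 or lower for 1 (2.94%), against 2.78%. The members were listed with earlier results of these data known, so these shares are a description. Of the 34 members 16 had higher means in large cells, against 33.6% of all genes, and the median log2 fold change was -0.02 over the members and -0.11 over all genes. With 3 pools a group, 0.1 is the smallest p that an exact two-sided permutation test can reach.

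*UGCG* encodes glucosylceramide synthase, which adds glucose to ceramide and so opens the pathway to gangliosides and globosides. Its log2 expression was 6.71, 6.87 and 6.83 in large pools 2, 3 and 4, against 5.28, 5.61 and 5.82 in small pools 5, 6 and 7. The groups were separated by a gap wider than the range within either, and the large pools lay close together. The means were 6.80 ± 0.09 in large cells and 5.57 ± 0.27 in small cells (SD, n = 3 pools each). The log2 fold change was 1.23 (standard error 0.16, 95% confidence interval 0.85 to 1.61), or 2.35-fold. Its unadjusted p by limma of 0.00021 ranked 11 among the 18404 genes, and its adjusted p was 0.32. The values of all 3 small pools lay below the expression floor of log2(100), 6.64, a limit set for signal near background, and those of the large pools lay just above it, so the size of the difference is uncertain.

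*B4GALT5* and *B4GALT6* encode the galactosyltransferases that turn glucosylceramide into lactosylceramide. *B4GALT5* had 7.97, 8.88 and 7.62 in large pools 2, 3 and 4, against 6.82, 7.45 and 7.55 in small pools 5, 6 and 7. The groups did not overlap, but large pool 4 and small pool 7 were nearly equal. The log2 fold change was 0.89 (standard error 0.36, interval 0.001 to 1.77, adjusted p = 0.34 by limma), and without large pool 3, the highest of the 6, it was 0.52. *B4GALT6* had 7.76, 7.31 and 9.01 in large pools 2, 3 and 4, against 6.55, 6.66 and 7.29 in small pools 5, 6 and 7. Here large pool 4 stood apart on the high side, and large pool 3 was barely above small pool 7. The log2 fold change was 1.19 (standard error 0.46, interval 0.08 to 2.31, adjusted p = 0.33 by limma), and without large pool 4 it was 0.70. Large pool 4 was also the large pool with the highest proliferation genes, *CCNB1* with 10.02, against 6.46 and 6.31 in large pools 2 and 3, among them. In small pools 5, 6 and 7 *CCNB1* had 9.02, 10.04 and 7.60. The part of the proliferation genes in the *B4GALT6* difference was not tested. The highest pool thus differed between the 2 genes, being large pool 3 for *B4GALT5* and large pool 4 for *B4GALT6*, whereas small pool 5 was the lowest pool for all 3 genes.

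**Figure D1:**
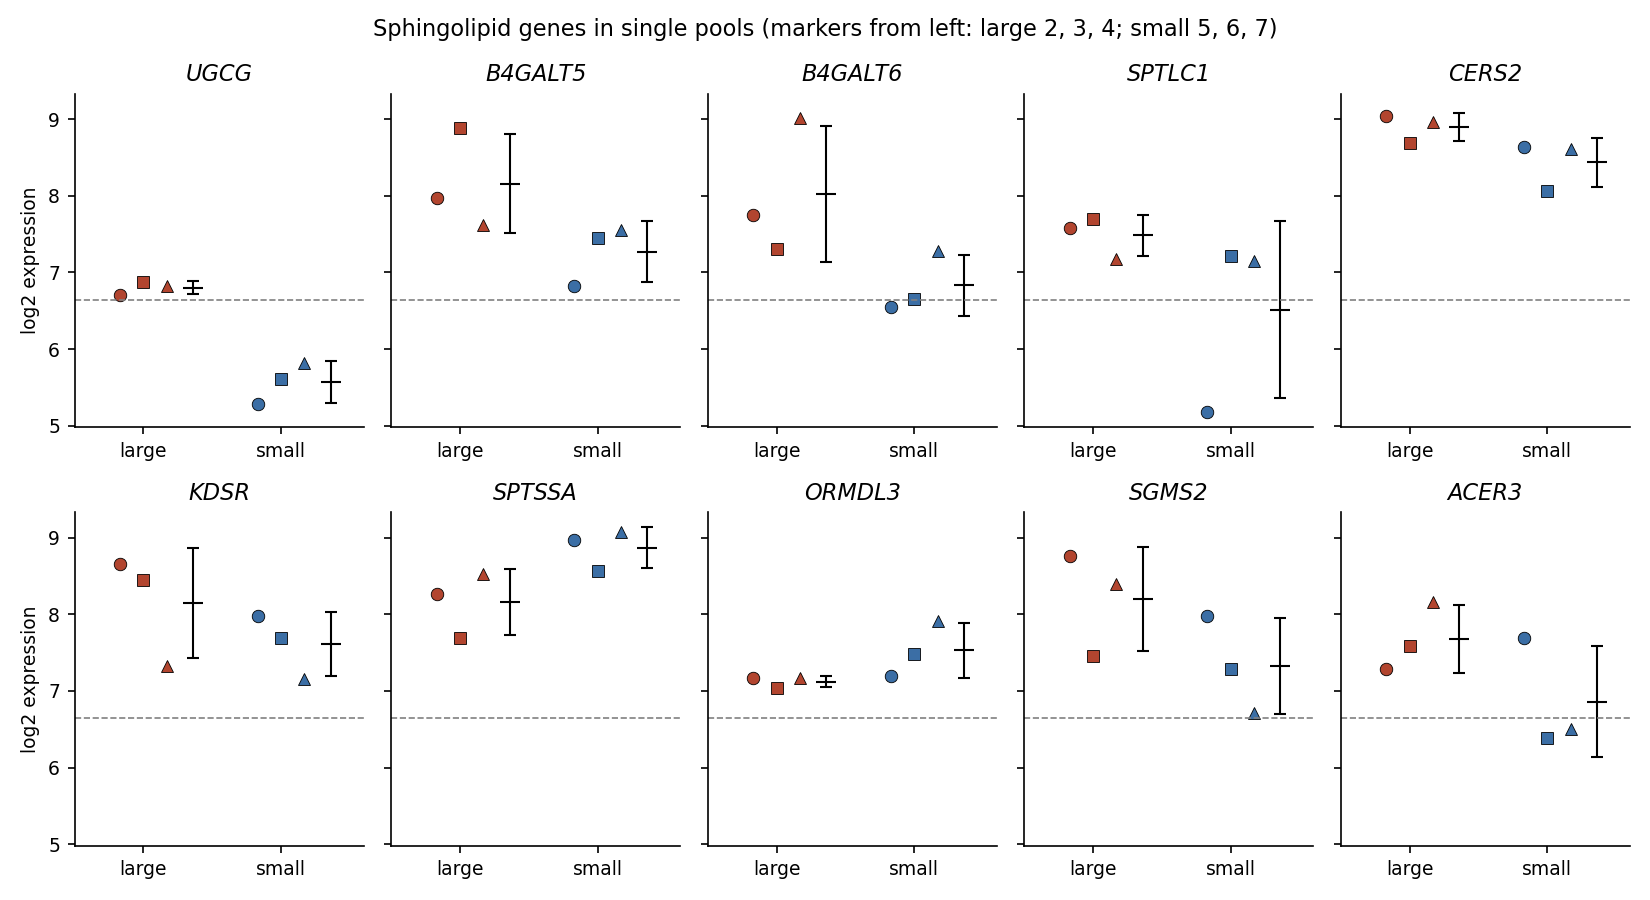
Log2 expression (vertical axis) of 10 sphingolipid genes in each pool of 20 large (red) or 20 small (blue) MUG-Chor1 cells; markers are pools, horizontal bars with whiskers are means and SDs (n = 3 pools), with the expression floor of 6.64 dashed. The *UGCG* pools split into large ones between 6.71 and 6.87 and small ones between 5.28 and 5.82, whereas single pools stand apart for *B4GALT5*, *B4GALT6* and *SPTLC1*.

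The sequences just before the starts of *UGCG* and *B4GALT5* are shown because these genes were higher together in the large pools; that of *B4GALT6* was not used here. They are the 250 bases upstream of the RefSeq start, 5′ to 3′ along the gene, from GRCh38.p14, at chr9:111896564-111896813 on the plus strand for *UGCG* and chr20:49713879-49714128 on the minus strand for *B4GALT5*. Capitals mark the letters GGGCGG or their reverse complement CCGCCC, the GC box that factors of the Sp family are known to bind.
UGCG: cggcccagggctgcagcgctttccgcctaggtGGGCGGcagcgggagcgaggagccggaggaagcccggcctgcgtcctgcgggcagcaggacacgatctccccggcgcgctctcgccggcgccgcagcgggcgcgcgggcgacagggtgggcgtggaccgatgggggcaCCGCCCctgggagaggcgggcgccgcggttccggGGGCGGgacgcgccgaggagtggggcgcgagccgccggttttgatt
B4GALT5: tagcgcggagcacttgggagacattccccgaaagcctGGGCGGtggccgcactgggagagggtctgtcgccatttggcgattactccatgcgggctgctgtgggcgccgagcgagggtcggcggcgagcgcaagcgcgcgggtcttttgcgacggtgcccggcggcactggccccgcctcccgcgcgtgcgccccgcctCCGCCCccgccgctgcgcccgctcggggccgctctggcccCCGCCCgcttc
Each stretch held 3 such matches, and 78.4% of its bases were G or C for *UGCG* and 75.6% for *B4GALT5*. The median was 68.8% over the promoters of the listed genes and 58% over all 35116 RefSeq promoters. Such stretches were not limited to genes higher in large cells. Those of *SPTSSA* (82.0%) and *DEGS2* (76.8%), both with lower means in large cells, held 6 matches each. At least 1 match was present in 42.6% of all promoters and in 39 of the 55 that belonged to 30 of the 37 genes. Some of these genes had several promoters, and the other genes of the list had none in the set used. The letters CCAAT (32% of all promoters), CACGTG (6.34%) and TATAAA (10.7%), searched on both strands with no overlap with the GC box, were not found in either stretch. A match of letters is a description of the window and no evidence of binding.

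The 4 listed enzymes downstream of lactosylceramide lay close to 0, *ST8SIA1* on its brighter probe set only. *ST3GAL5*, the sialyltransferase that makes the ganglioside GM3, had 8.83, 8.20 and 8.09 in large pools 2, 3 and 4, against 8.39, 8.18 and 8.62 in small pools 5, 6 and 7. These groups overlapped fully, and the log2 fold change was -0.03 (standard error 0.23, interval -0.58 to 0.53, adjusted p = 0.96 by limma). *B4GALNT1*, which extends gangliosides with N-acetylgalactosamine, had a log2 fold change of -0.19, with every large pool below every small pool. *A4GALT*, which makes the globoside Gb3, had -0.15. *ST8SIA1*, which makes the ganglioside GD3, averaged 6.92 in large cells and 6.88 in small cells on its brighter probe set. On its other probe set the means were 5.97 in large cells and 6.58 in small cells, so the 2 probe sets of this gene did not run together. Over these 4 genes the log2 fold changes ran from -0.19 to 0.04.

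Galactosylceramide, known from myelin, is made in a branch of its own. *UGT8*, which adds galactose to ceramide, had 6.01, 6.00 and 5.86 in large pools 2, 3 and 4, against 6.35, 6.10 and 6.29 in small pools 5, 6 and 7. Every large pool lay below every small pool, and the log2 fold change was -0.29 (standard error 0.11, interval -0.56 to -0.02, unadjusted p = 0.039 and adjusted p = 0.33 by limma), but all 6 values were under the expression floor. The unadjusted p was no longer under 0.05 after quantile normalization (0.091), with each array centred on its median (0.12, difference -0.20) or with the trend with signal level removed (0.18). *GAL3ST1*, the sulfotransferase that makes sulfatide, averaged 6.49 in large cells and 6.61 in small cells. Of the 9 glycosphingolipid genes 4 had higher means in large cells and 5 lower, and the median log2 fold change of the 9 was -0.03. Without the 3 genes of the first 2 steps, the remaining 6 lay between -0.29 and 0.04.

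**Figure D2:**
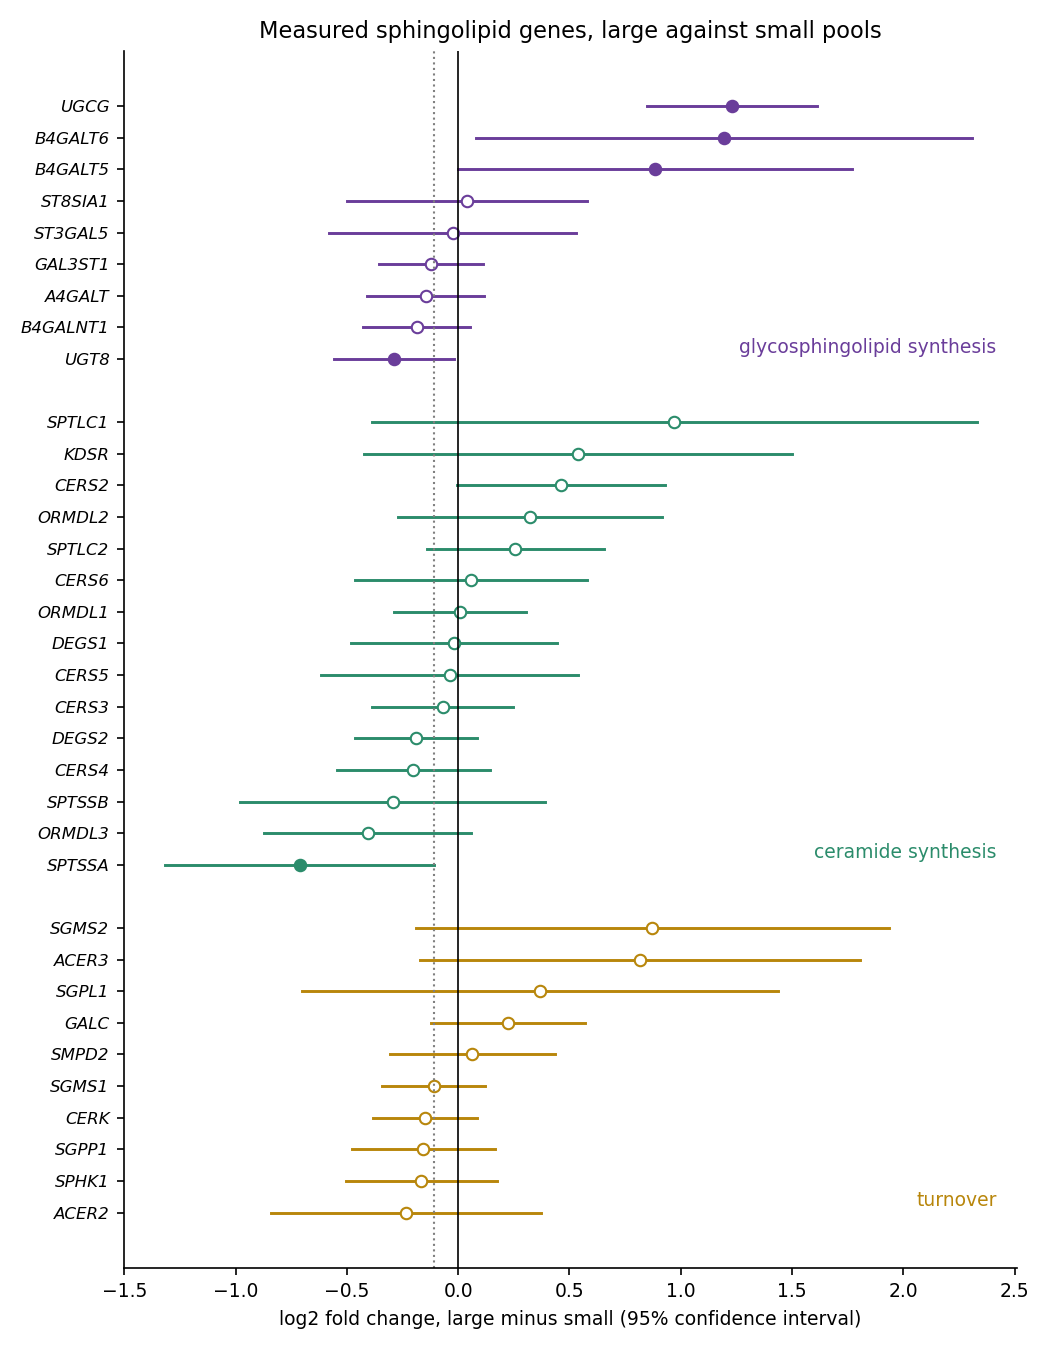
Log2 fold change of large minus small pools (horizontal axis) for the 34 measured genes by role, lines being 95% confidence intervals by limma for 3 against 3 pools; filled points had an unadjusted p under 0.05, and the dotted line is the median of all genes, -0.11. Among the glycosphingolipid genes, *UGCG*, *B4GALT6* and *B4GALT5* lie between 0.89 and 1.23, and the remaining 6 between -0.29 and 0.04.

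Ceramide synthesis, with 15 measured genes, showed no common direction: 7 had higher and 8 lower means in large cells, with a median log2 fold change of -0.02. *SPTLC1* and *SPTLC2* encode the catalytic core of serine palmitoyltransferase, the entry enzyme of the pathway. *SPTLC1* had 7.58, 7.69 and 7.18 in large pools 2, 3 and 4, against 5.18, 7.22 and 7.14 in small pools 5, 6 and 7. A single pool set this difference, since small pool 5 lay far below the other 5 and small pool 6 was above large pool 4. The log2 fold change was 0.97 (standard error 0.56, interval -0.39 to 2.33, adjusted p = 0.40 by limma), and without small pool 5 it was 0.30. *SPTLC2* had 8.80, 8.44 and 8.35 in large pools 2, 3 and 4, against 8.34, 8.07 and 8.42 in small pools 5, 6 and 7. Its groups overlapped through small pool 7, and the log2 fold change was 0.26 (standard error 0.16, interval -0.14 to 0.65, adjusted p = 0.43 by limma) and was 0.12 without large pool 2 and 0.15 without small pool 6.

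*SPTSSA*, a small subunit that activates serine palmitoyltransferase, had the lowest log2 fold change of all 34 members. It had 8.26, 7.69 and 8.52 in large pools 2, 3 and 4, against 8.97, 8.57 and 9.07 in small pools 5, 6 and 7. The groups did not overlap, though large pool 4 and small pool 6 nearly met. Its log2 fold change was -0.71 (standard error 0.25, interval -1.32 to -0.11, unadjusted p = 0.028 and adjusted p = 0.32 by limma), and all 6 values were above the expression floor. With a pool left out the difference ran from -0.48 (without large pool 3, the lowest of the 6) to -0.90 (without large pool 4). Its paralog *SPTSSB* was under the floor in all 6 pools, with -0.29.

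The ORMDL proteins hold serine palmitoyltransferase in check. *ORMDL3* had 7.17, 7.03 and 7.16 in large pools 2, 3 and 4, against 7.19, 7.48 and 7.91 in small pools 5, 6 and 7. The large pools were tightly grouped under the small ones, and small pool 5 was almost level with them, and the log2 fold change was -0.41 (standard error 0.19, interval -0.87 to 0.06, adjusted p = 0.35 by limma), and -0.22 without small pool 7. *ORMDL2* had 0.32, with overlapping groups, and 0.075 without small pool 6, and *ORMDL1* averaged 7.89 in both large and small cells. *KDSR*, the reductase of the second step, had 8.66, 8.45 and 7.33 in large pools 2, 3 and 4, against 7.98, 7.70 and 7.15 in small pools 5, 6 and 7. Large pool 4 lay among the small pools, and the log2 fold change was 0.54 (standard error 0.40, adjusted p = 0.48 by limma). It was 0.28 without large pool 2, 0.31 without small pool 7 and 0.95 without large pool 4.

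Of the ceramide synthases, which differ in the length of the acyl chain they attach, *CERS2* was the one with separated groups. *CERS2*, which prefers very long chains, had 9.05, 8.69 and 8.96 in large pools 2, 3 and 4, against 8.63, 8.07 and 8.61 in small pools 5, 6 and 7. Large pool 3 was only just above small pools 5 and 7, and small pool 6 was the lowest. Its log2 fold change was 0.46 (standard error 0.19, interval -0.004 to 0.93, unadjusted p = 0.051 and adjusted p = 0.34 by limma), and without small pool 6 it was 0.28. *CERS6*, *CERS5* and *CERS3* averaged 10.46, 7.73 and 5.85 in large cells, against 10.40, 7.77 and 5.91 in small cells, and *CERS4* had a log2 fold change of -0.20. *DEGS1*, the desaturase that completes ceramide, had 9.24, 8.76 and 9.22 in large pools 2, 3 and 4, against 9.04, 8.87 and 9.37 in small pools 5, 6 and 7. Its groups overlapped, and the log2 fold change was -0.02 (interval -0.48 to 0.45). *DEGS2*, its paralog that also makes phytoceramide, had -0.19.

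In turnover, with 10 measured genes that use ceramide for sphingomyelin, phosphorylate it or break sphingolipids down, 5 had higher and 5 lower means in large cells, and the median log2 fold change was -0.02. *SGMS2*, which acts at the plasma membrane, had 8.76, 7.45 and 8.39 in large pools 2, 3 and 4, against 7.98, 7.29 and 6.72 in small pools 5, 6 and 7. Large pool 3 lay below small pool 5, so the groups overlapped, although the log2 fold change was 0.87 (standard error 0.44, interval -0.19 to 1.94, adjusted p = 0.36 by limma) and 0.57 without small pool 7. *SGMS1*, which acts in the Golgi, had 6.41, 6.51 and 6.36 in large pools 2, 3 and 4, against 6.52, 6.61 and 6.48 in small pools 5, 6 and 7. All 6 values were under the expression floor, and the log2 fold change was -0.11 (interval -0.34 to 0.12).

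*ACER3*, a ceramidase of the endoplasmic reticulum and Golgi, had 7.29, 7.58 and 8.16 in large pools 2, 3 and 4, against 7.70, 6.38 and 6.50 in small pools 5, 6 and 7. Small pool 5 lay within the large pools while the other small pools were under the expression floor. The log2 fold change was 0.82 (standard error 0.41, interval -0.17 to 1.80, adjusted p = 0.36 by limma). With a pool left out it ran from 0.57 (without large pool 4) to 1.24 (without small pool 5). *ACER2*, the Golgi ceramidase, was under the floor in all pools with -0.23. *SGPL1*, the lyase that irreversibly cleaves sphingosine 1-phosphate, ranged from 6.97 to 7.91 in large pools and from 6.47 to 7.98 in small pools. *GALC*, the lysosomal enzyme that removes galactose from galactosylceramide, averaged 10.15 in large cells and 9.93 in small cells (log2 fold change 0.22, or 0.14 without small pool 6 and 0.35 without small pool 7). *CERK* had -0.15, *SPHK1* -0.17 and *SGPP1* -0.16, that is the ceramide kinase, a sphingosine kinase and a phosphatase of sphingosine 1-phosphate, and *SMPD2*, a neutral sphingomyelinase, averaged 6.29 in large cells and 6.22 in small cells. The values of *KDSR*, *ORMDL3*, *SGMS2* and *ACER3* are given by pool because they were seen to be large or separated, not by the rule for the other genes.

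**Figure D3:**
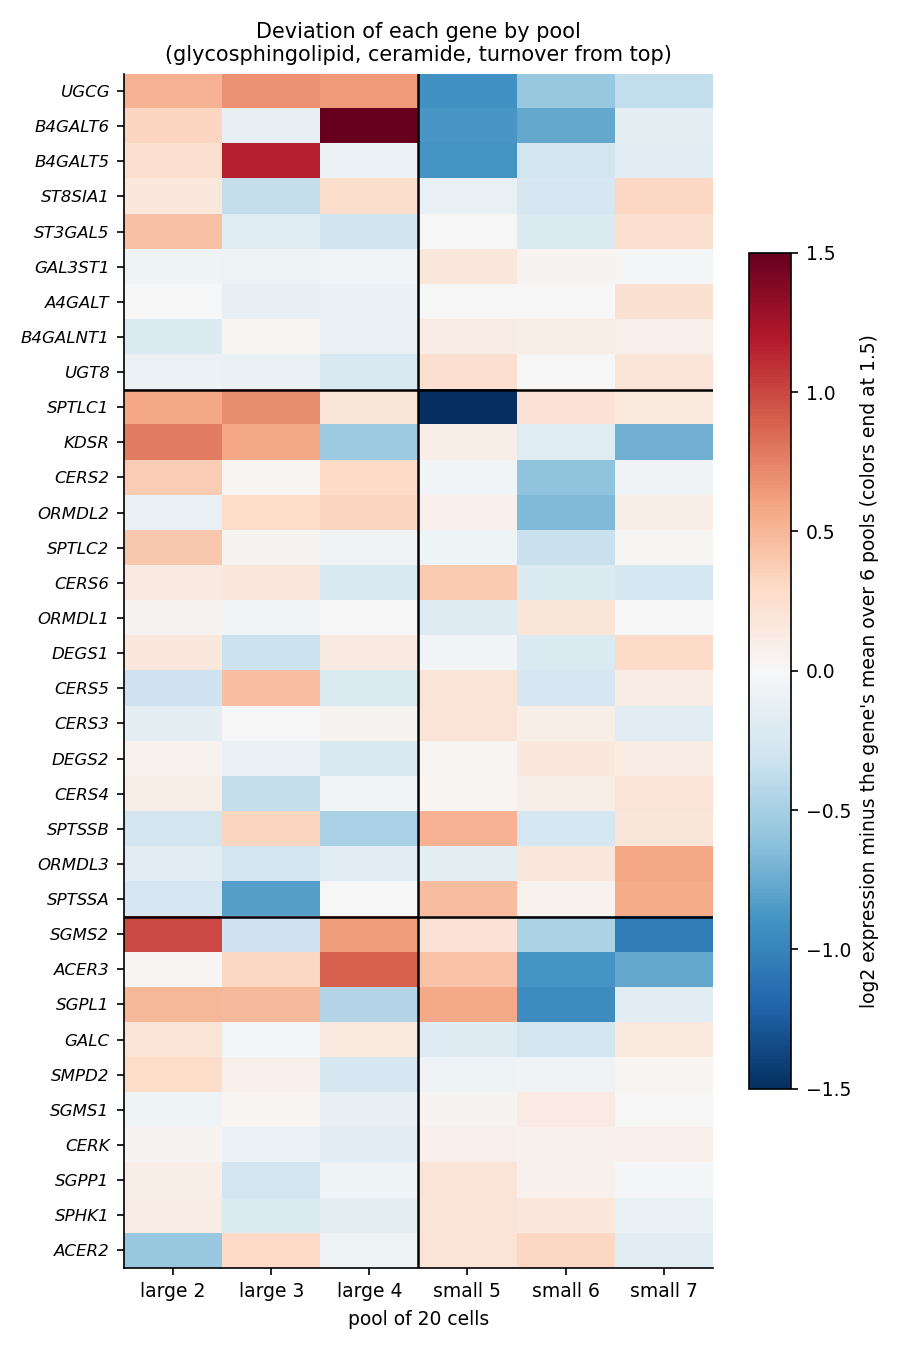
Log2 expression minus each gene's own mean over the 6 pools (color, ending at 1.5) for the 34 measured genes (rows) in each pool (columns); black lines separate large from small pools and, from the top, glycosphingolipid, ceramide and turnover genes. *UGCG* and *CERS2* have 1 sign in all large pools and the opposite in all small pools, though *CERS2* had only 0.02 in large pool 3 and -0.04 in small pool 5. The strongest colors of *SPTLC1* and *B4GALT6* sit in small pool 5 and large pool 4.

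The members varied among themselves in level and spread. Of the 34 genes 16 were above the expression floor in all 6 pools, against 43.4% of all genes, 8 in none and 10 in some pools. The SD between pools ran from 0.02 to 0.88 in large cells and from 0.01 to 1.16 in small cells. Among the 16 genes above the floor in all pools, 9 had higher and 7 lower means in large cells, with a median log2 fold change of 0.03. The mean deviation of the 9 glycosphingolipid genes from their own means was 0.15, 0.10 and 0.18 in large pools 2, 3 and 4, against -0.25, -0.22 and 0.04 in small pools 5, 6 and 7. Without *UGCG*, *B4GALT5* and *B4GALT6* it was 0.04, -0.14 and -0.09 in large pools 2, 3 and 4, against 0.07, -0.05 and 0.17 in small pools 5, 6 and 7. These 3 are the genes of the 9 whose large pools all lay above their small pools, so the loss of separation without them is no separate result. The median deviation of the 9 genes overlapped, with 0.15, -0.10 and -0.09 in large pools 2, 3 and 4, against -0.003, -0.20 and 0.07 in small pools 5, 6 and 7. The mean deviation for ceramide synthesis was 0.09, 0.04 and -0.06 in large pools 2, 3 and 4, against -0.02, -0.12 and 0.07 in small pools 5, 6 and 7, with overlapping groups.

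Genes that surround these enzymes in the pathway were read from 6 further lists, of which 54 of 59 genes were measured, 15 with higher and 39 with lower means in large cells. By limma 0 of the 54 passed, while an unadjusted p under 0.05 belonged to 2 with higher means, against 4.33% of all genes, and 7 with lower means, against 10.5%, and the median log2 fold change was -0.12, close to the -0.11 of all genes. Of 10 lysosomal hydrolases and cofactors of sphingolipid breakdown 3 had higher and 7 lower means in large cells (median -0.06), with 0 at an unadjusted p under 0.05. Of 7 lipid carriers 1 had such a p, *CERT1*, the transfer protein that carries ceramide to the Golgi for sphingomyelin synthesis. *CERT1* had 7.92, 8.13 and 8.37 in large pools 2, 3 and 4, against 7.94, 7.50 and 7.16 in small pools 5, 6 and 7. Small pool 5 was level with large pool 2, and the log2 fold change was 0.60 (standard error 0.23, adjusted p = 0.33 by limma).
Of 11 further glycosphingolipid transferases 3 had higher and 8 lower means in large cells. A log2 fold change within 0.3 of 0 was found for 8 of the 11, against 13273 of the 18404 genes. *GBGT1*, which makes the Forssman lipid in other mammals, had a log2 fold change of -0.28 and *B3GALT4*, which makes the ganglioside GM1, -0.31. The highest of the 11 was *B3GNT5* with 0.62 and the lowest *ST3GAL1* with -0.32, both with overlapping groups. Of 9 genes of non-lysosomal breakdown the sphingomyelinases *SMPD4* and *SMPD3* had -0.50 and -0.34, both under the floor in all 6 pools. Of 13 genes that supply acyl chains the elongase *ELOVL2* had 0.34, under the floor in all pools, and the fatty acid hydroxylase *FA2H* -0.41. All 4 measured receptors of sphingosine 1-phosphate had lower means in large cells, as did 12229 of the 18404 genes, among them *S1PR2* with -0.44 and *S1PR5* with -0.28. The adjusted p by limma was 0.49 for *B3GNT5*, 0.47 for *ST3GAL1* and 0.32 to 0.34 for the other genes named here.

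**Figure D4:**
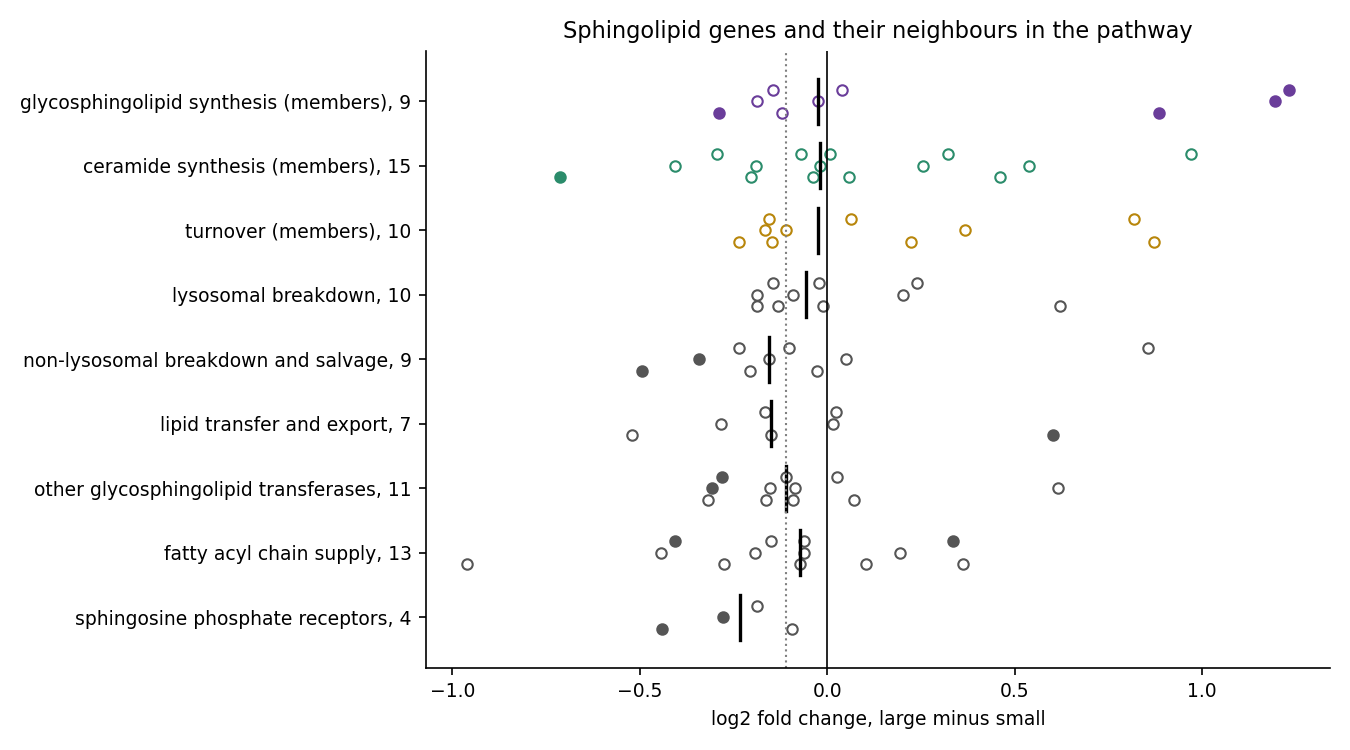
Log2 fold change of large minus small pools (horizontal axis) for the 3 role groups of members (colored) and the 6 further lists (grey), each point a gene, with the number of measured genes beside each name; thick bars are medians, filled points had an unadjusted p under 0.05 and the dotted line is the median of all genes, -0.11. The points farthest to the right are *UGCG* with 1.23 and *B4GALT6* with 1.19.

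The array medians over all probe sets lay between 6.64 and 6.68 in large pools and between 6.73 and 6.76 in small pools. With genes cut into 5 equal classes by mean level, the median log2 fold change of the members was -0.15, -0.14, -0.15, 0.68 and 0.03 in order of brightness, over 3, 8, 5, 8 and 10 genes, against -0.09, -0.15, -0.17, -0.13 and 0.08 for all genes. All 7 chordoma markers, brachyury (*TBXT*) among them, were above the floor in all pools, and their mean level was 10.40 to 10.45 in large pools and 10.35 to 10.45 in small pools. All 7 fibroblast markers had lower means in large cells, as most genes did, with a mean level of 6.91 to 7.06 in large pools and 7.19 to 7.50 in small pools. The 4 measured leukocyte markers had 5.99 to 6.33 in large pools and 5.97 to 6.33 in small pools, with *PTPRC* at 4.49 in large cells and 4.53 in small cells, *CD68* at 8.88 in large cells and 8.28 in small cells (log2 fold change 0.60, unadjusted p = 0.032 by limma) and *LYZ* at 4.83 in large cells and 5.49 in small cells, and the 4 endothelial markers 6.18 to 6.35 in large pools and 6.34 to 6.43 in small pools. The 7 proliferation genes had 6.41 to 8.50 in large pools and 7.21 to 8.11 in small pools, and 5 of the 7 had lower means in large cells. Large pool 4 stood apart from large pools 2 and 3, with *MKI67* at 8.90, against 7.12 and 6.74, and *BUB1* at 8.17, against 6.63 and 6.85. In small pools 5, 6 and 7 *MKI67* had 8.48, 9.22 and 8.28, and *BUB1* 7.86, 7.68 and 7.31. The part of these values in the differences of the sphingolipid genes was not tested. In pooled cells, fewer cells that express a gene and less RNA per cell cannot be told apart.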

How the data were processed

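Amplified cDNA from 6 pools of MUG-Chor1 cells was hybridized to 1 array per pool, and the labels gave each pool its group. Values on the log2 scale, 1 per probe set and array, were deposited by the authors, who had corrected the background, quantile-normalized the arrays and summarized probes by median polish (robust multi-array averaging, RMA). The affy package is named in the methods and Affymetrix Expression Console in the processing notes of the submitters. All 6 columns were used, with 0 left out. Of 32321 probe sets 19158 had 1 gene symbol in the platform annotation, 1388 had several and 11775 had none.

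Large minus small was fitted with limma 3.58.1 (R 4.3.3) and no covariate on 1 probe set for each of 18404 genes, with Benjamini-Hochberg adjustment over all of them and a threshold of 0.05. No filter was applied, since the methods remove unexpressed and unvarying genes but state no limits; filters were alternatives. The expression floor, log2(100), was used for description. The estimates of the fit were checked on simulated arrays with planted changes, which adds no support to the results. Values are given by pool for members with an unadjusted p under 0.05, for those with separated groups and an absolute log2 fold change of at least 0.5, and for 9 core enzymes. In the further lists up to 3 genes with an unadjusted p under 0.05 are named per list. *B3GNT5* and *ST3GAL1* are named outside this rule, for the size of their difference. The members and lists were chosen with earlier results of these data known. Sequences are from RefSeq (GRCh38.p14). The number of arrays limits the precision.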

Additional observations from a re-analysis of the deposited data

How the results depend on the processing

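No member passed at an adjusted p under 0.05 under any of the 15 alternatives, which covered filters, scaling, the variance model, array weights, the choice of probe set and each pool left out. *UGCG* kept an unadjusted p under 0.05 in all 15, with log2 fold changes of 1.08 to 1.36. It passed the filters among them through the large pools alone, so its p-values under the filters add no support. The number of members higher at an unadjusted p under 0.05, 3 in the report, was 1 when all probe sets of the array were fitted and ran from 1 (without large pool 2 or small pool 6) to 4 with a pool left out. The unadjusted p of *B4GALT5* by limma was 0.0498 in the report and under 0.05 in 6 of its 14 alternatives. For *B4GALT6*, and likewise for *SPTSSA*, it was under 0.05 in 10 of 15. With array weights the 3 higher members were *UGCG*, *B4GALT6* and *CERS2*. The number lower, 2 in the report, was 1 with the expression floor, after quantile normalization, with arrays centred on the median or with the trend with signal level removed, 0 with the floor and an interquartile range above 0.5, and 0 (without large pool 2 or small pool 7) to 2 with a pool left out. With the floor, which left 23 members, the median log2 fold change was 0.46 over the 6 glycosphingolipid genes left and 0.37 over the 5 turnover genes left, and with the interquartile range as well, which left 7 members, it was 1.21 over 2 genes (*UGCG* and *B4GALT6*) and 0.82 over 3. *UGCG* passed the floor through the large pools alone, with 0 of 3 small pools above it, so these medians describe the genes that passed and support nothing. Of the 34 members 23 kept the sign of their log2 fold change throughout, and 11 changed it, none with an absolute value above 0.37. *DEGS1* turned to 0.065 and *ST3GAL5* to 0.059 with arrays centred on the median, to 0.030 and 0.027 with array weights, and *SGMS1* to 0.025 with the trend with signal level removed. With a pool left out *DEGS1* ranged from -0.13 to 0.14 and *ST3GAL5* from -0.25 to 0.12. The cause was not tested. The median of all genes moved from -0.11 as deposited to -0.03 with centring and -0.01 with the trend removed. No paired analysis was possible because the groups compared share no replicate number.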
